A study of Arabidopsis thaliana with 4 samples.

Results

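The auxin-conjugating GH3 genes of Arabidopsis thaliana were followed in whole seedlings of the wild type Col-0 and of the lux-6 mutant. The 8 genes are GH3.1, GH3.2, GH3.3, GH3.4, GH3.5, DFL1 (also GH3.6), DFL2 (also GH3.10) and GH3.17. They were taken by their AGI identifiers from the 33602 gene IDs of the deposited FPKM values, which are fragment numbers divided by gene length and sequencing depth. The Col-0 libraries are labelled wild type and the lux-6 libraries lux -/- in the Col-0 ecotype, with 2 biological replicates of each per the series' design. Growth was for 10 days at 22 °C under long days, on MS medium with 3% sucrose, and harvest was at ZT12, 12 h after lights on. Throughout, the values of a genotype are given for replicate 1 and then replicate 2. P-values rest on the spread between these 4 libraries, with each gene's variance drawn toward that of other genes. The labels give neither the lesion in lux-6 nor how many seedlings went into a library. In whole seedlings, fewer cells that express a gene and less RNA in each of them cannot be told apart.

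GH3 enzymes are acyl acid amido synthetases, which join a small carboxylic acid hormone to an amino acid. Members that act on indole-3-acetic acid, the main natural auxin, take it out of the active pool as an amino acid conjugate. Many of their genes are themselves induced by auxin within minutes to hours, so they act in a feedback loop that holds auxin down. LUX encodes a DNA-binding subunit of the evening complex, which also holds ELF3 and ELF4 and represses growth and clock genes around dusk. The label auxin-conjugating is background knowledge that transcript levels cannot check. It is least certain for DFL2, whose product has been described as acting on jasmonic acid. RefSeq describes the product of GH3.1 only as similar to the synthases that act on auxin.

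The results turn on GH3.5 and DFL1, whose upstream sequences are shown to let the pair be compared. Each sequence runs 5′ to 3′ on the gene's own strand from 250 bases before to 50 bases after the start of the gene annotated by RefSeq in TAIR10.1. Capitals mark bases that lie in a run of at least 10 bases found in both windows. Runs that overlap or adjoin are joined, so a whole stretch of capitals need not occur in the other window.
GH3.5, chr4:13653329-13653628, plus strand: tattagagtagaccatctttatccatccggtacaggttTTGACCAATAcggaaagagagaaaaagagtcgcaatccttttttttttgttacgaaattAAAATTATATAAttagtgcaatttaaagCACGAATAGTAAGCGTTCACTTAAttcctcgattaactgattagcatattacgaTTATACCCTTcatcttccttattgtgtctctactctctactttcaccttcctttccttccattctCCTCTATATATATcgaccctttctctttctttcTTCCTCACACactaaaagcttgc
DFL1, chr5:22133639-22133938, minus strand: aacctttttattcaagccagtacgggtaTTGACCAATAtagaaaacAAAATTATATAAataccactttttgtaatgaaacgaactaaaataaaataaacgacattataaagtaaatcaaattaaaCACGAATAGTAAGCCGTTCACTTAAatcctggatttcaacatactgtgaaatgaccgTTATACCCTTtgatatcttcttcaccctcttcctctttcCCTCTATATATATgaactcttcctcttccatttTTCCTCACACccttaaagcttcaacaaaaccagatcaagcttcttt
The capitals cover 79 of the 300 bases of GH3.5 and 80 of those of DFL1. The longest shared run, CACGAATAGTAAGC, has 14 bases and begins at position -125 from the start in each gene. Of the 28 pairs among the 8 windows, the next in shared bases were GH3.2 and GH3.4, with 35 bases in each. The coding sequences of GH3.5 and DFL1 are 1839 bases long in both genes, lie on 3 coding exons and are identical at 84.1% of the aligned bases. Between either of them and the other 6 coding sequences identity was between 58.5% and 68.0%.

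For contrast, the windows of 2 relatives with low levels are shown, chosen after their values were seen. Capitals in them mark motif matches only, not runs shared with another window.
GH3.2, chr4:17579368-17579667, plus strand: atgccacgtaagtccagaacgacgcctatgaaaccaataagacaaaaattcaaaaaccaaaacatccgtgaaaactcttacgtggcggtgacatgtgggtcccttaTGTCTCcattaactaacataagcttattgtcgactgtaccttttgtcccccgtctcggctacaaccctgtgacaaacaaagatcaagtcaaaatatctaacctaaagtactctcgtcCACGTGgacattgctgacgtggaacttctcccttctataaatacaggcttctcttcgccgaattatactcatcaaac
GH3.3, chr2:9866513-9866812, minus strand: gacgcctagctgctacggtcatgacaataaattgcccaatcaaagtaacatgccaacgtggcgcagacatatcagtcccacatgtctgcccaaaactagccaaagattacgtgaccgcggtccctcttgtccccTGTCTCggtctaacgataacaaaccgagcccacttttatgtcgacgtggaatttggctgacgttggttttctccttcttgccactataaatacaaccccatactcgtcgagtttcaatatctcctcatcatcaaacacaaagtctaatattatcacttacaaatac
TGTCTC, the core of the classical auxin response element, was searched on both strands. It lay in the windows of 4 of the 8 genes, GH3.1, GH3.2, GH3.3 and GH3.5, and in 14.2% of the windows of 27443 protein-coding genes. In these windows it began at position -47 from the start in GH3.5, at -116 in GH3.3 and at -144 in GH3.2, and within the transcribed bases, at 32, in GH3.1. With 1000 upstream bases TGTCTC lay in 5 of the 8 genes, GH3.4 being added, and in 41.9% of all genes. In the sequence of GH3.5 shown above it is in lower case, outside the stretches shared with DFL1. DFL1 held no match to any of the motifs searched, also with 1000 upstream bases. The G-box CACGTG, a site of bHLH factors, occurred in the window of GH3.2 and in 7.68% of all windows. GATACG and GATTCG, spellings of the site bound by LUX, occurred in the window of GH3.4 and in 14.5% of all windows. The gene model of GH3.4 has no UTR, so its window is counted from the start of the coding sequence. With 1000 upstream bases DFL2 held a match as well, and so did 41.5% of all genes. TGTCGG, a variant with high affinity for auxin response factors, was in none of the 8 windows and in 5.12% of all. With 1000 upstream bases GH3.2 held it, as did 15.4% of all genes. A match is a string of letters and was not tested as a binding site.

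The libraries also differed in ways that the genotype labels do not give. LUX (AT3G46640) transcripts were lower in both lux-6 libraries (34.8 and 35.3 FPKM) than in either Col-0 library (57.0 and 73.9 FPKM), and still present. Its log2 fold change was -0.87 (standard error 0.19) and did not pass in limma (adjusted p = 0.187). Col-0 replicate 2 stood apart, and every Col-0 mean and fold change rests in part on it. Across all gene IDs, Col-0 replicate 1 correlated less with Col-0 replicate 2 (Pearson r = 0.964, log2 scale) than with lux-6 replicates 1 and 2 (r = 0.984 and 0.985), which is a description over genes that are not independent. Plastid-encoded transcripts were 3.09% of the FPKM sum in Col-0 replicate 2 and between 0.0525% and 0.0698% in the other libraries. Summed over 8 root markers, none at 0, the level was 1529 FPKM in Col-0 replicate 2 and between 2757 and 3187 FPKM in the others. Summed over 5 green shoot markers, none at 0, it was 32761 FPKM there and between 18081 and 20996 FPKM elsewhere. The higher sum lay mainly in RBCS1A, at 20766 FPKM in Col-0 replicate 2 against 10599 FPKM in replicate 1, and CA1, while LHCB1.3 and LHCA1 had their lowest values of the 4 libraries there; these markers were named after their values were seen. Root and shoot markers were thus present in each library of the whole seedling. Summed over 5 seed storage markers it was 186 and 11.97 FPKM for Col-0 against 1623 and 1742 FPKM for lux-6, with SESA4 and CRU2 at 0 in Col-0 replicate 2, and 3 of the 5 were called higher in lux-6. The part of these differences in the GH3 values was not tested beyond leaving out each library.

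Across all 19592 tested genes, those with a mean of at least 1 FPKM, limma called 57 genes at an adjusted p of at most 0.05, or 0.291%. Of the 8 GH3 genes 6 were tested and none was called. GH3.1 and GH3.4 were left untested because their levels were too low. At an unadjusted p under 0.05, 2 of the 6 were higher in lux-6 and none was lower, against 9.18% and 3.1% of all tested genes. Limma-voom on fragments, which called 0.174% of genes, also called none of the 6. The median log2 fold change was 0.21 over the 6 genes and 0.047 over all tested genes.

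**Figure D1:**
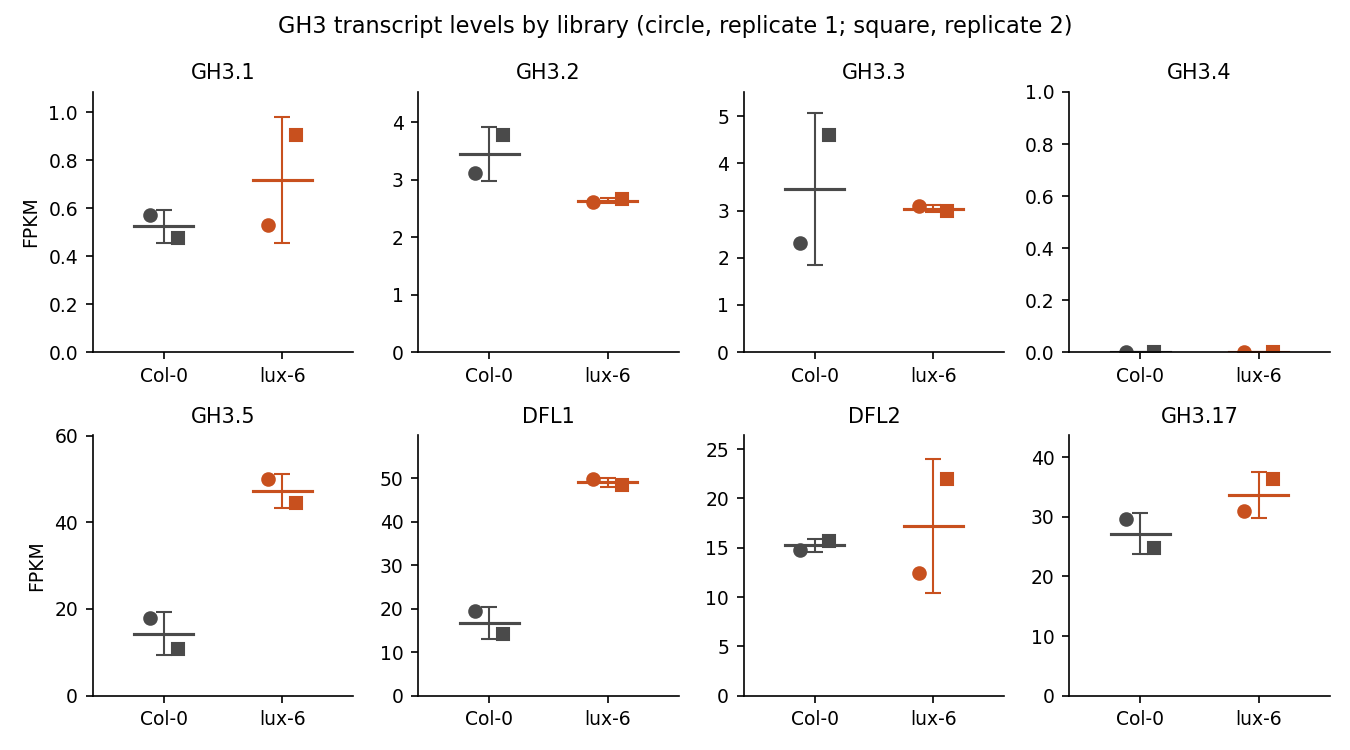
FPKM of each GH3 gene (vertical axis, linear and from 0, with its own range per panel) in Col-0 (grey) and lux-6 (orange). Circles are replicate 1 and squares replicate 2, with the mean as a horizontal line and the SD (n = 2) as a bar. GH3.5 and DFL1 lie between 10.8 and 19.3 FPKM in Col-0 and between 44.4 and 50.004 FPKM in lux-6, while GH3.4 is listed at 0 throughout.

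GH3.5 (AT4G27260, also WES1, chr4:13653579-13656285, plus strand) and DFL1 were about 3 times as high in lux-6 as in Col-0. GH3.5 encodes an enzyme that conjugates indole-3-acetic acid and also accepts other acids such as salicylic acid. Col-0 had 17.9 and 10.8 FPKM of it, while lux-6 had 50.004 and 44.4 FPKM. Both lux-6 libraries thus lay well above both Col-0 libraries, and Col-0 replicate 2 was the lowest of the 4. The means were 14.3 ± 4.98 FPKM in Col-0 and 47.2 ± 3.98 FPKM in lux-6 (SD, n = 2), a ratio of 3.29. The log2 fold change was 1.69 (standard error 0.27) and its 95% interval ran from 0.99 to 2.39.

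DFL1 (AT5G54510, chr5:22130964-22133688, minus strand) encodes another conjugating enzyme of auxin, and a dominant mutant of it has short hypocotyls in the light. Col-0 had 19.3 and 14.2 FPKM of it, while lux-6 had 49.8 and 48.3 FPKM. Again the genotypes did not overlap and Col-0 replicate 2 was the lowest. The Col-0 mean was 16.8 ± 3.66 FPKM and the lux-6 mean 49.1 ± 1.04 FPKM (SD, n = 2), a ratio of 2.93. The log2 fold change was 1.51 (standard error 0.20) and its 95% interval ran from 0.98 to 2.04.

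Neither gene passed over all genes, with adjusted p = 0.108 for GH3.5 and 0.0774 for DFL1 in limma. By unadjusted p, DFL1 was at rank 197 and GH3.5 at rank 305 of 19592. A log2 fold change at least as high as that of GH3.5 was found for 2.85% of tested genes, and for DFL1 the share was 3.68%. As to depth, GH3.5 rested on 442 and 272 Col-0 fragments and on 1232 and 1070 from lux-6. For DFL1 there were 465 and 346 from Col-0 and 1192 and 1132 from lux-6. The exact 95% Poisson intervals, which cover counting error only, ran from 9.57 to 12.2 FPKM for GH3.5 in Col-0 replicate 2 and from 16.2 to 19.6 FPKM in replicate 1.

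The call for both genes depended on which libraries were in the fit. Without Col-0 replicate 2 the log2 fold changes were 1.35 for GH3.5 and 1.3 for DFL1, with adjusted p = 0.00808 and 0.00688 in limma. Without Col-0 replicate 1 they were 2.03 and 1.72, with adjusted p = 0.000461 and 0.000560. These fits keep 1 Col-0 library, which is assumed to vary as the lux-6 pair does, and they called 3.83% and 33.8% of all tested genes. Without lux-6 replicate 1 the fold changes were 1.6 and 1.49, with adjusted p = 0.761 and 0.687, and without lux-6 replicate 2 they were 1.77 and 1.53, with adjusted p = 0.687 and 0.684. In all of these fits the sign was positive, and in the last 2 of them limma called no gene in the whole table, while 874 and 889 genes had an unadjusted p under 0.05.

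**Figure D2:**
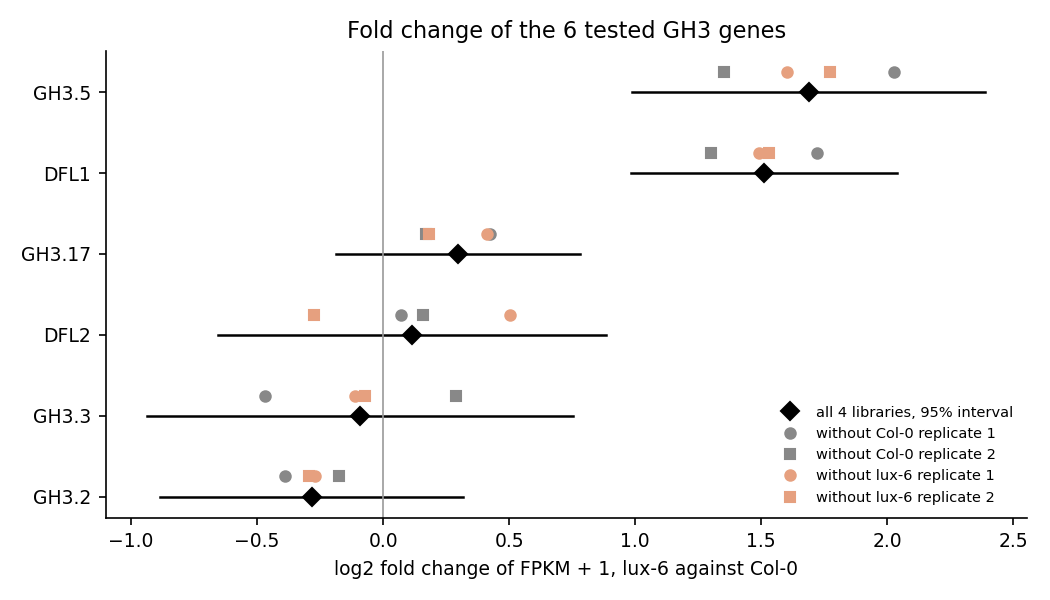
Log2 fold change of FPKM + 1 in lux-6 against Col-0 (horizontal axis) for the 6 tested GH3 genes. Diamonds with lines are the fit on all 4 libraries with its 95% interval, and the small symbols above them are the fits that leave out 1 library. GH3.5 and DFL1 stay between 1.3 and 2.03, while GH3.3 and DFL2 have values on both sides of 0.

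GH3.5 and DFL1 were close to each other in level in every library. The ratio of GH3.5 to DFL1 was 0.923 and 0.763 for Col-0 against 1.004 and 0.918 for lux-6, with 1 lux-6 library inside the Col-0 range and the other above it. No word of 50 bases is shared between the coding sequence of either gene and that of any other GH3 gene. Fragments of that length that match exactly and lie within the coding sequence can therefore be told apart between the pair.

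GH3.17 (AT1G28130, chr1:9825169-9828118, plus strand), which encodes an enzyme with a preference for glutamate in conjugating auxin, was the highest of the 8 genes in both Col-0 libraries. Col-0 had 29.7 and 24.7 FPKM of it, while lux-6 had 30.9 and 36.4 FPKM. The lux-6 libraries were above the Col-0 libraries, with lux-6 replicate 1 only just above Col-0 replicate 1. The means were 27.2 ± 3.48 and 33.6 ± 3.87 FPKM (SD, n = 2), and the log2 fold change of 0.30 had a 95% interval from -0.19 to 0.78 (limma adjusted p = 0.547). Of the 6 tested genes 3, GH3.5, DFL1 and GH3.17, lay above both Col-0 values in both lux-6 libraries, as 26.1% of all tested genes did.

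DFL2 (AT4G03400, chr4:1497536-1501599, minus strand), a gene linked to hypocotyl length in red light, had 14.7 and 15.7 FPKM (Col-0) against 12.4 and 22.0 FPKM (lux-6). The lux-6 libraries lay on either side of the Col-0 pair, and the spread was wider in lux-6 (SD 6.77 FPKM) than in Col-0 (SD 0.695 FPKM). The log2 fold change was 0.11 with a 95% interval from -0.66 to 0.88 (limma adjusted p = 0.881), and it turned to -0.28 without lux-6 replicate 2. In RefSeq the annotated span of DFL2 overlaps AT4G03410 on the opposite strand. The gene model behind the deposited values was not given and may differ, in its start as well. Whether the counting used strand is not given in the sources used here, so reads of the overlap may belong to either gene.

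GH3.2 (AT4G37390, chr4:17579618-17582022, plus strand) and GH3.3 (AT2G23170, chr2:9863855-9866562, minus strand), auxin-inducible conjugating enzymes, were low in every library. GH3.2 had 3.109 and 3.77 FPKM (Col-0) against 2.61 and 2.67 FPKM (lux-6). Both lux-6 libraries were below both Col-0 libraries, as for 22.8% of all tested genes, and it was the only 1 of the 6 tested GH3 genes with that order. Its log2 fold change was -0.28 with a 95% interval from -0.88 to 0.32 (limma adjusted p = 0.621). GH3.3 had 2.31 and 4.60 FPKM (Col-0) against 3.099 and 2.99 FPKM (lux-6). The lux-6 values lay between those of Col-0, the log2 fold change was -0.09 with a 95% interval from -0.94 to 0.75, and it turned to 0.29 without Col-0 replicate 2. GH3.2 rested on between 61 and 90 fragments a library and GH3.3 on between 54 and 109. The intervals of both genes leave out a log2 change of the size seen for GH3.5.

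GH3.1 (AT2G14960, chr2:6451319-6453797, minus strand), whose protein resembles the synthases that act on auxin, had 0.573 and 0.477 FPKM (Col-0) against 0.531 and 0.904 FPKM (lux-6). These values rested on between 11 and 20 fragments, the genotypes overlapped, and no difference was detectable at this depth. GH3.4 (AT1G59500, chr1:21854493-21856614, minus strand) was listed at 0 in all 4 libraries. A count of 0 allows up to 3 fragments, or at most 0.156 FPKM in the shallowest library over the annotated exon length. The coding sequences of GH3.4 and GH3.2 are identical at 90.9% of aligned bases, the highest share among the 28 pairs. They have 28 words of 50 bases in common, or 1.6% of the words of GH3.4, and reads there could have gone to either gene or been dropped.

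**Figure D3:**
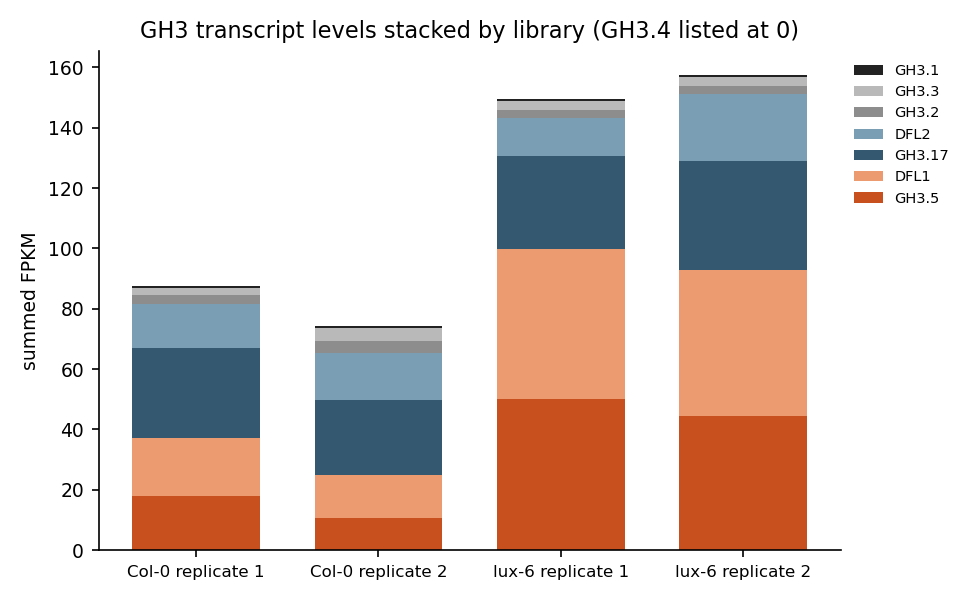
FPKM summed over the GH3 genes (vertical axis) in each library, with 1 colour per gene. The sum is 87.6 and 74.3 FPKM in Col-0 and 149 and 158 FPKM in lux-6, and the 2 lowest blocks, GH3.5 and DFL1, hold most of the difference.

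Since FPKM is scaled by gene length, levels can be summed over the family. The sum over the 8 genes was 80.9 ± 9.42 FPKM in Col-0 and 154 ± 5.85 FPKM in lux-6 (SD, n = 2), a ratio of 1.90. GH3.5 and DFL1 together made up 42.5% and 33.6% of the Col-0 sums but 66.8% and 58.8% of the lux-6 sums. The remaining 6 genes summed to 50.4 and 49.3 FPKM (Col-0) against 49.5 and 64.9 FPKM (lux-6), where lux-6 replicate 1 lay within the Col-0 range. By level the order in Col-0 replicate 1 was GH3.17, DFL1, GH3.5, DFL2, GH3.2 and GH3.3, then GH3.1. In Col-0 replicate 2 DFL2 stood ahead of DFL1, and GH3.3 ahead of GH3.2. In lux-6 GH3.5 and DFL1 were first, in either order, followed by GH3.17 and DFL2 in both libraries. Neighbours that overlapped between libraries of a genotype were GH3.5, DFL1 and DFL2 in Col-0 and GH3.5 and DFL1 in lux-6, as well as GH3.2 and GH3.3 in Col-0.

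**Figure D4:**
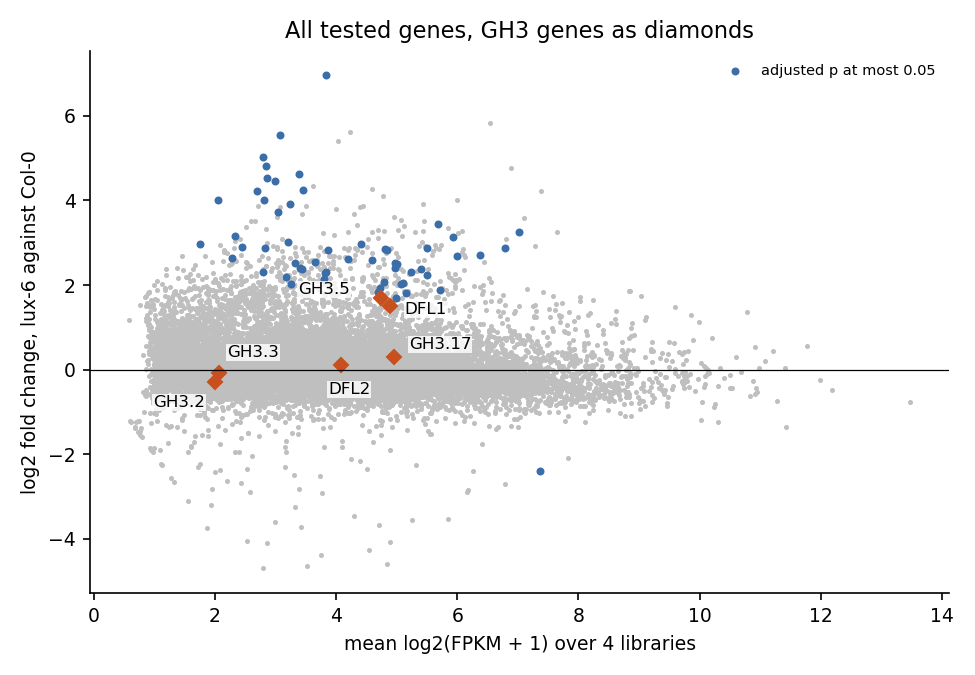
Log2 fold change in lux-6 against Col-0 (vertical axis) by mean log2(FPKM + 1) over the 4 libraries (horizontal axis) for 19592 tested genes in grey. Blue points are the 57 called genes and orange diamonds the 6 tested GH3 genes. GH3.5 at 1.69 and DFL1 at 1.51 lie above most genes, and no GH3 gene is among the called ones.

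The genes with the most similar pattern were found by the distance between gene-centred log2(FPKM + 1) profiles over the 4 libraries. To the mean profile of the 6 tested GH3 genes the nearest were MYB65, TBL45 and AT1G17970, at distances of 0.057, 0.061 and 0.064. Their log2 fold changes were 0.51, 0.56 and 0.54. These lie below those of GH3.5 and DFL1 and above those of the other tested members, so this mean profile is that of no single member. To the mean profile of GH3.5 and DFL1 alone, a measure chosen after their values were seen, they were PUP7 (AT4G18197), AT2G39980, which encodes a HXXXD-type acyl-transferase, and AT3G15630, at distances of 0.036, 0.054 and 0.084. PUP7, a purine permease gene, had 5.73 and 3.58 FPKM (Col-0) against 16.4 and 15.7 FPKM (lux-6), with a log2 fold change of 1.62 (limma adjusted p = 0.105).

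Of the other GH3 family genes, 5 of 11 were tested, none was called, 1 had an unadjusted p under 0.05, and the median log2 fold change was 0.23. AT5G13350 and AT5G13380 were listed at 0 in all 4 libraries. JAR1 (AT2G46370), which conjugates jasmonic acid to isoleucine and so makes the active jasmonate, had 34.1 and 20.7 FPKM (Col-0) against 30.2 and 31.8 FPKM (lux-6). PBS3 (AT5G13320), an enzyme of salicylic acid synthesis, was under 1 FPKM in every library and untested. JAR1 and the untested relatives above 0 were named after their values were seen. The smallest p was that of AT1G48660, a GH3 family protein gene, with 1.32 and 0.726 FPKM (Col-0) against 2.17 and 3.25 FPKM (lux-6) (log2 fold change 0.88, limma adjusted p = 0.379). The next was AT5G13370, at 27.2 and 30.7 against 36.3 and 32.1 FPKM, with a log2 fold change of 0.23. GH3.9 (AT2G47750), another relative, had 1.43 and 0.414 FPKM (Col-0) against 1.18 and 0.303 FPKM (lux-6), untested. GH3.7 (AT1G23160), also untested, had 0.366 and 0.154 FPKM (Col-0) against 0.577 and 0.804 FPKM (lux-6). GH3.18 (AT1G48670), untested too, had 0.920 and 0.453 FPKM (Col-0) against 0.809 and 1.12 FPKM (lux-6).

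Enzymes that release auxin from its amino acid conjugates work against the GH3 enzymes. Of 7 genes of this hydrolase family all but ILL5 were tested, and none of the 6 was called. Whether each product acts on auxin conjugates cannot be read from transcript levels. At an unadjusted p under 0.05, 2 of the 6 were higher, against 9.18% of all tested genes. The hydrolase median log2 fold change was 0.30, or -0.00072 without Col-0 replicate 2. ILL6 (AT1G44350), whose product has been described as acting on jasmonoyl-isoleucine, had 4.94 and 3.23 FPKM (Col-0) against 15.0 and 12.3 FPKM (lux-6). Its log2 fold change of 1.54 was the highest of the list and did not pass (limma adjusted p = 0.110). IAR3 (AT1G51760), which cleaves conjugates with alanine, had 23.3 and 15.0 FPKM (Col-0) against 31.6 and 30.1 FPKM (lux-6) (log2 fold change 0.69, limma adjusted p = 0.377). The other 4 tested hydrolase genes ranged from -0.25 to 0.32.

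Of 5 genes of other auxin inactivation steps 4 were tested and none was called, none having an unadjusted p under 0.05 either, with a median of 0.26, or -0.12 without Col-0 replicate 2. UGT84B1, a glucosyltransferase gene, was listed at 0 throughout. AT1G14130 had 12.9 and 7.78 FPKM (Col-0) against 15.3 and 16.03 FPKM (lux-6) (log2 fold change 0.59, limma adjusted p = 0.463). IAMT1 (AT5G55250), which methylates indole-3-acetic acid, had 3.097 and 4.12 FPKM (Col-0) against 2.36 and 1.97 FPKM (lux-6), with a log2 fold change of -0.53.

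Limma-voom likewise called no member of the other GH3 family genes or of the 6 auxin lists. All 6 receptor genes had positive log2 fold changes, between 0.15 and 0.50, against 55.0% of all tested genes with a positive one. The receptor median was 0.28, or 0.13 without Col-0 replicate 2. No receptor gene was called, and 1 had an unadjusted p under 0.05. AFB4 (AT4G24390) and AFB1 (AT4G03190), receptor F-box genes, had 0.50 and 0.49. The 6 auxin response factor genes had a median of 0.10, with ARF19 (AT1G19220), an activator, at 0.58 and ARF17 (AT1G77850), a repressor, at 0.29. Leaving out Col-0 replicate 2 turned the median to -0.0071, and leaving out replicate 1 instead moved it to 0.27. None was called and 1 had an unadjusted p under 0.05. Of 10 early auxin-induced Aux/IAA genes, which encode repressors of auxin response, 9 were tested and none was called. IAA6 (AT1G52830), untested, was at 0 in both Col-0 libraries and had 0.880 and 1.35 FPKM in lux-6. At an unadjusted p under 0.05, 5 of the 9 were higher, against 9.18% of all tested genes. With replicate number also in the model, 2 Aux/IAA genes were called, as were 1.74% of all tested genes. Without Col-0 replicate 1, when 33.8% of all tested genes were called, 8 of the Aux/IAA genes were. In that fit 3 hydrolase, 3 synthesis, 2 other GH3 family, 2 other inactivation, 1 receptor and 1 response factor gene were called too. Without Col-0 replicate 2, when 3.83% of all genes were called, 2 Aux/IAA genes and 1 hydrolase gene were. All 9 had positive log2 fold changes, from 0.49 to 2.19 with a median of 1.1, against 55.0% of all tested genes with a positive one. The median was 0.74 without Col-0 replicate 2. IAA2 (AT3G23030) had 63.9 and 38.7 FPKM (Col-0) against 193 and 162 FPKM (lux-6), and IAA4 (AT5G43700) had 75.1 and 63.6 against 129 and 112 FPKM. Their log2 fold changes were 1.81 and 0.79, with limma adjusted p = 0.108 and 0.205. Of 11 auxin synthesis genes all but YUC1, YUC4 and YUC7 were tested. The 8 tested had a median of 0.13, with none called and 1 at an unadjusted p under 0.05. That median turned to -0.017 without Col-0 replicate 2, to -0.067 with no filter and to -0.17 when a mean of 5 FPKM or more was required. YUC5 (AT5G43890) and YUC9 (AT1G04180), flavin monooxygenase genes of the last step of synthesis, had 0.97 and 0.55.

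**Figure D5:**
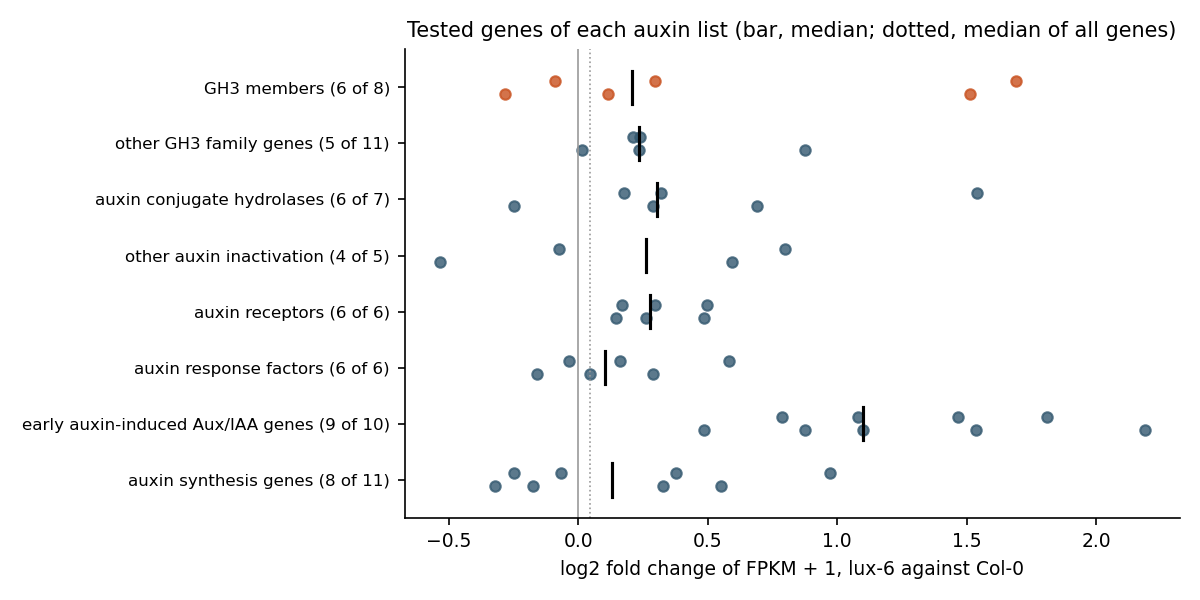
Log2 fold change in lux-6 against Col-0 (horizontal axis) of each tested gene of the GH3 family and of 7 auxin lists, with the number tested of all members beside each name. Black bars are medians and the dotted line the median of all tested genes. The GH3 median is 0.21 with GH3.5 and DFL1 apart at 1.69 and 1.51, and the Aux/IAA genes have a median of 1.1.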

How the data were processed

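RNA was prepared with TRIzol and DNase I and libraries with the NEBNext Ultra RNA kit, per the labels' protocols. TopHat2 2.0.12 and TAIR10 are named in the submitters' processing notes with no role. Counter, gene lengths, filters and strand setting were not given in the sources used here. For 33602 gene IDs the authors deposited FPKM values, as named per the file headers, with each library in its own file. Log2(FPKM + 1) was modelled by genotype alone with limma 3.58.1 and its mean-variance trend (R 4.3.3), for the 19592 genes whose mean was 1 FPKM or more. P-values are two-sided, adjusted by Benjamini-Hochberg over all tested genes, with a threshold of 0.05. Fold changes on this scale understate the change of low genes. With 2 against 2 libraries an exact permutation test cannot go below p = 0.333. Each gene's variance had 2 residual degrees of freedom and was weighed with 2.877 prior degrees of freedom taken from all tested genes.

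Library totals worked back from the FPKM values ran from 10735709 to 11198704 fragments. Trying gene lengths from 0.5 to 1.2 times the annotated one made fragments whole, to within 0.002, for 82.9% of the 24532 genes with a value above 0. GH3.17 and LUX were not among these, and their fragments are estimates. Single-library intervals are exact Poisson intervals at 95% confidence, and a value of 0 was taken to allow 3 fragments. For DFL2 a doubled length gave whole fragments too and the shorter was used. The main fit and the search were tested on simulated data, and the alternative fits were not. The simulated spread for the fit came from the lux-6 pair (r = 0.993), which was closer than the Col-0 pair (r = 0.964). That simulation therefore does not cover the spread seen in Col-0.

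Gene names, coding sequences and upstream windows are from RefSeq on TAIR10.1, in which the nuclear chromosomes of TAIR10 are unchanged. Lists and members were chosen with earlier results of these data known. Of each list the 2 genes with the smallest p are named, and of members at 0 or untested those that a count refers to. Others are said to be named after their values were seen. Alternatives were another pseudocount, other filters, median-of-ratios scaling, removal of organelle genes, limma-voom on fragments, a replicate block and each library left out.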

Additional observations from a re-analysis of the deposited data

How the results depend on the processing

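The log2 fold changes of GH3.5 and DFL1 were positive under all alternatives, from 1.35 to 2.03 and from 1.3 to 1.72. Their adjusted p ranged from 0.000461 to 0.761 and from 0.000560 to 0.687 in limma. Of the 8 GH3 genes, 0 were called in the fit as reported and 2 with the replicate block or without either Col-0 library. The replicate block gave GH3.5 and DFL1 adjusted p = 0.0330 and 0.0397 in limma and 340 called genes, or 1.74%. Deviations of same-numbered libraries were uncorrelated across tested genes (r = -0.0255). With 1 difference per genotype, and Col-0 replicate 2 apart, this cannot decide whether same-numbered libraries form pairs. Leaving out 1 library gave between 0 and 2 called GH3 genes, a median of the GH3 genes between 0.056 and 0.46, and between 0 and 6618 called genes in all. The count of called genes, 57 as reported, was 0 with a pseudocount of 0.1 and 0 with no filter, where limma gave an unadjusted p under 0.05 to 2316 and 2680 genes. It was 100 with a mean of at least 5 FPKM, 96 with median-of-ratios scaling, 132 without organelle genes and 34 with limma-voom. With a mean of at least 5 FPKM the median of the GH3 genes was 0.90, since only 4 of them were tested. With 1 library left out GH3.3 ranged from -0.47 to 0.29, positive without Col-0 replicate 2, and DFL2 from -0.28 to 0.50, negative without lux-6 replicate 2, and for both the cause was not tested. Depth limits GH3.1 and GH3.4, and 2 libraries per genotype limit the rest.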
